A study of Mus musculus with 13 samples.

Results

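The B-cell partner break at c-myc is a stretch of mouse chromosome 15 at which the sequencing of joined DNA ends placed many junctions in activated B cells. It was taken as chr15:61904760-61919000 of mm9, the coordinates of the deposited tables, around the position 61914760 at which the B-cell libraries have their highest partner peak. The region was thus chosen by the positions and the number of B-cell junctions, which are given below as a description with no test. The region spans 14241 bp, of which 10 kb lie left of the peak and 4.24 kb right of it. It held 1511 of the 9577 junctions of the 7 c-myc libraries, and the whole series has 16455 junctions in 13 libraries. All 1511 carried the gene label Pvt1 in the tables, while exons and introns were not analysed here.

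High-throughput genome-wide translocation sequencing reads from a fixed break, called the bait, across the join into whatever sequence was ligated to it, called the prey. Here the bait was an I-SceI cassette at c-myc, whose peak of nearby junctions lay at 61818879, 95.9 kb left of the partner peak. The c-myc B cells were activated splenic cells of genotype c-myc25-2xI, cultured with anti-CD40 and IL-4 (3 libraries, replicates 14, 36 and 37). They were set beside SV40-transformed tail fibroblasts of genotype c-myc25xI;RosaI-SceI-GR without activation (4 libraries, replicates 1 to 4). The name c-myc25 of the cassette allele is common to both groups. RosaI-SceI-GR stands for a fusion of I-SceI with the glucocorticoid receptor, expressed from the Rosa26 locus, while the B-cell labels do not name how I-SceI was supplied. The fibroblasts have their own partner peak at 61923262, which in the deposited coordinates is 8502 bp right of that of the B cells. Cell type, genotype, supply of I-SceI, sequencing run and reference changed together between the groups and cannot be told apart. The B-cell libraries came from 3 runs, the fibroblast libraries from 1.

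I-SceI is a yeast homing endonuclease whose long recognition site is not known from the mouse genome, so that it cuts mainly where a site was inserted. It leaves 3′ overhangs of 4 bases. Broken ends are mostly rejoined by non-homologous end joining, which can lose or add a few bases, or through short identical stretches called microhomology. Pvt1 is a long non-coding RNA gene next to Myc, and rearrangements around both genes are known from mouse plasmacytomas and human B-cell lymphomas. When the bait joins a second break on the same copy of the chromosome, a join in one orientation deletes the stretch between them and a join in the other inverts it.

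The reference sequence in the B-cell tables holds a pair of I-SceI sites at the peak. The pair is shown because 9 of the 10 most used junction positions lie between its ends, with the sites of 18 bases in capitals, on the + strand at chr15:61914737-61914782. The sites face each other across 4 bases.
inverted pair: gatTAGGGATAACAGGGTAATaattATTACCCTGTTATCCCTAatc
The 46 bases are a perfect palindrome, so that both strands read the same, and its axis lies after base 61914759. The sites cover bases 61914740 to 61914757 and 61914762 to 61914779. I-SceI cuts the + strand after base 61914748 in the left site and after base 61914774 in the right site. Where the inserted sequence ends on either side was not analysed here.
The fibroblast tables use another reference here. Words of 24 bases shared by both groups had the same coordinates left of the peak (708 words). Right of it all 3097 had coordinates 172 bp higher in the B-cell tables. Distances of fibroblast junctions right of the peak are therefore smaller by that much than on the B-cell reference. The same holds for the 8502 bp between the peaks of both groups.

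The region held a far larger share of the junctions in the B-cell libraries than in the fibroblast libraries. In B-cell replicates 14, 36 and 37 the region held 622 of 2918, 657 of 2850 and 210 of 878 junctions. These shares were 21.3% (95% Wilson interval 19.9 to 22.8%), 23.1% (21.5 to 24.6%) and 23.9% (21.2 to 26.8%). In fibroblast replicates 1 to 4 it held 6 of 980, 4 of 769, 7 of 620 and 5 of 562 junctions, or 0.612, 0.520, 1.13 and 0.890%. Every B-cell library lay above every fibroblast library, which the choice of the region fixes. The means were 22.8% ± 1.33 in B cells (SD, n = 3) and 0.788% ± 0.276 in fibroblasts (SD, n = 4), a ratio of 28.9. The B-cell reference holds the pair of I-SceI sites at the peak, and the fibroblast tables use another reference here. Whether the fibroblast allele holds these sites was not tested. The ratio thus does not compare cell types at a break known to be shared. Of junctions on chromosome 15 alone, the shares averaged 27.5% in B cells and 1.01% in fibroblasts. Of junctions outside the bait window, which reaches 10 kb to either side of the bait peak, they averaged 45.6% in B cells and 1.19% in fibroblasts.

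Per 1000 junctions of a library and kb of sequence, the region held 16.0 ± 0.930 junctions in B cells (SD, n = 3) and 0.553 ± 0.194 in fibroblasts (SD, n = 4). The 75.88 kb between the bait window and the region held 0.324 ± 0.0833 in B cells and 0.112 ± 0.0580 in fibroblasts. At the left edge, the first 1 kb inside held 4 B-cell junctions and the 1 kb outside held 2, with 0 fibroblast junctions in either. At the right edge, the last 1 kb inside held 33 B-cell junctions, 24 of them in 1 library. The 1 kb outside held 12, 11 of them in 1 library. Fibroblasts had 7 junctions inside that edge and 3 outside.

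**Figure D1:**
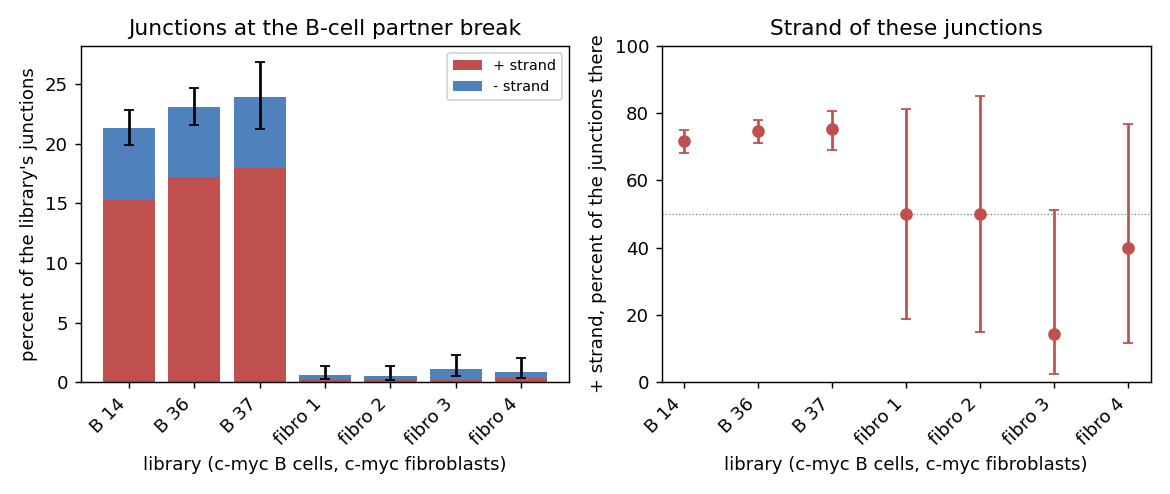
Left, percent of each library's junctions that lie in the region, stacked by strand, with the 95% Wilson interval of the total; right, percent of these junctions on the + strand with its 95% Wilson interval. The 3 B-cell libraries sit at 21.3 to 23.9% and 71.7 to 75.2% + strand, and the 4 fibroblast libraries at 0.520 to 1.13% with intervals on strand that span most of the axis.

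Prey on the + strand reads toward increasing coordinates, the direction in which the bait itself points, and such a join deletes the stretch in between when both breaks are on one copy. Which copy a junction came from cannot be read from the tables. In B-cell replicates 14, 36 and 37 the region had 446, 491 and 158 junctions on the + strand and 176, 166 and 52 on the − strand. The + strand made up 71.7, 74.7 and 75.2%, with a mean of 73.9% ± 1.91 (SD, n = 3). Fibroblast replicates 1 to 4 had 3, 2, 1 and 2 junctions on the + strand against 3, 2, 6 and 3 on the − strand, a mean of 38.6% ± 16.9 (SD, n = 4). The groups did not overlap, and their difference of 35.3 percentage points had the smallest p that 3 against 4 libraries allow (exact two-sided permutation p = 0.0571, adjusted p = 0.149). Within 4 kb of the peak alone it was 32.6 points, and values of both groups overlapped (exact permutation p = 0.229). Left of the pair fibroblasts had 5 junctions on the + strand and 4 on the − strand, and right of it 3 and 10. The 13 on the right also lie in the fibroblasts' own partner window. Their mean of 38.6% may thus mix junctions of 2 breaks, which was not tested.

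The excess of + strand joins at this break was set beside the bait window and the fibroblasts' own partner window. The bait window lies around the bait break itself and is not a partner break. In replicates 14, 36 and 37, 78.3, 71.5 and 72.2% of its junctions were on the + strand right of the bait peak. Within B cells the bait window had 80.5, 74.8 and 76.9% of its junctions on the + strand, so that region minus bait window was -3.50 points on average, with overlapping values. The exact sign-flip permutation p was 0.25, the least that 3 pairs allow, with adjusted p = 0.325. Counting each position and strand once, the difference was -8.09 points without overlap, at 65.7% ± 3.56 in the region and 73.8% ± 2.37 in the bait window (SD, n = 3 each). It was -12.4 points with junctions within 200 bp of the partner peak left out and -7.55 without lines that hold an I-SceI site, in both cases without overlap (exact permutation p = 0.25 in each). The first of these took junctions from the region only, while the bait window kept those around its own peak. In the fibroblasts' own partner window, of the same size around their own peak, 55.8, 50.4, 52.1 and 54.7% lay on the + strand. The B-cell region stood 20.7 points above it, with every B-cell library higher (exact permutation p = 0.0571, again the lower limit, adjusted p = 0.149). Counting each position and strand once, this was 11.4 points. With junctions within 200 bp of each peak left out it was 10.5 points, and values overlapped (exact permutation p = 0.343).

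B-cell junctions were densest inside the pair of I-SceI sites and close to it. Within 50 bp of the peak lay 31.5, 62.6 and 60.5% of the region's junctions in replicates 14, 36 and 37, which is 734 of 1489 over all. Within 200 bp lay 39.2, 71.4 and 70.0%, and within 1 kb 61.3, 84.9 and 84.8%. Replicate 14 was the lowest at each of these distances. On the + strand 40.4, 66.4 and 65.2% lay within 50 bp in replicates 14, 36 and 37, and on the − strand 9.09, 51.2 and 46.2%. The − strand was lower in every library, and by the most in replicate 14. Fibroblasts had 0 of 22 junctions within 1 kb of the peak, the nearest being 1038 bp away. As a share of their 2931 junctions, a count of 0 allows up to 0.102%.

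Replicate 14 also differed in the ends of its fragments. Of its junctions in the region, 75.7% came from fragments whose far end read GG, against 6.54% in replicate 36 and 11.9% in replicate 37. Of its 168 + strand junctions inside the pair, 167 came from fragments that ended at base 61914796, where the reference reads GGCC, the sequence that the enzyme HaeIII cuts in its middle. In replicates 36 and 37 this was so for 8 of 272 and 8 of 84. The lowest alignment score in the region was 30, and a + strand prey that starts at base 61914768 or later and ends at 61914796 has fewer bases than that. From base 61914768 to the end of the pair replicate 14 had 0 junctions on the + strand, replicate 36 had 116 and replicate 37 had 35. The label of replicate 14 states sonication like the others, and the part of fragmentation in its profile was not tested. The median aligned length was 46 bases in replicate 14, 92 in replicate 36 and 77 in replicate 37.

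**Figure D2:**
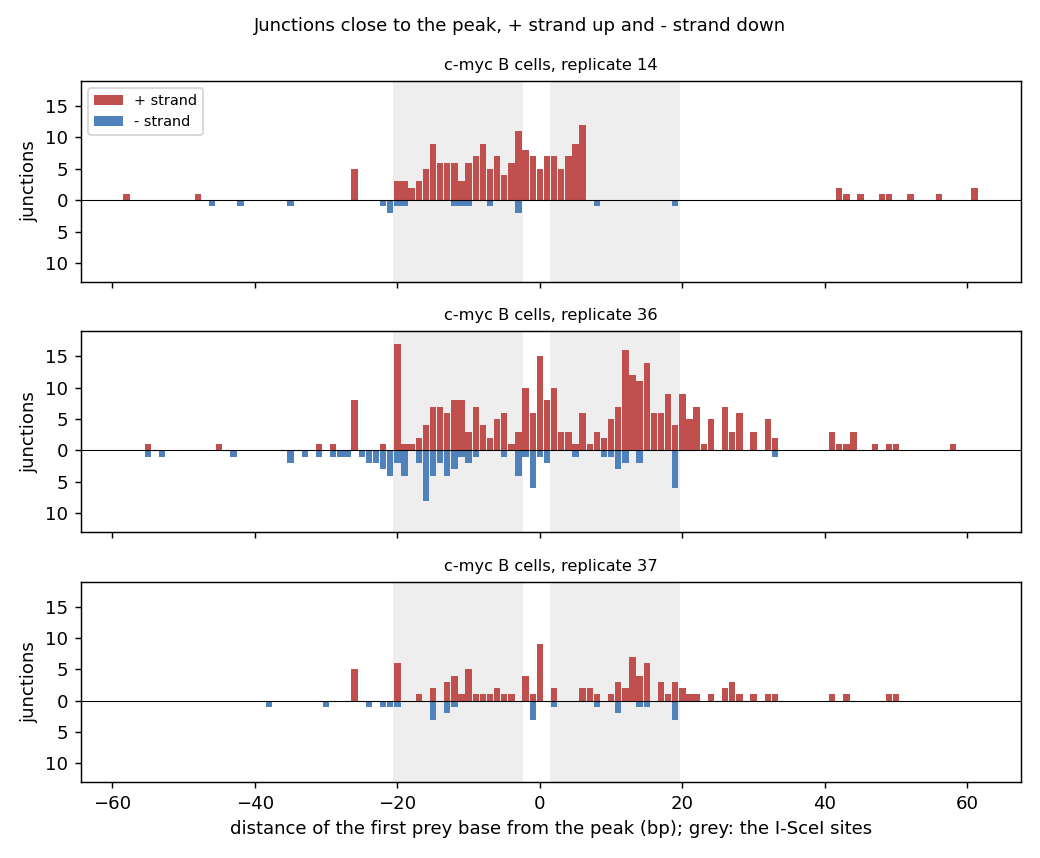
Number of junctions by distance of the first prey base from the peak, in bp, for the 3 B-cell libraries, with the + strand drawn upward, the − strand downward and the I-SceI sites in grey. Replicates 36 and 37 use both sites on both strands, while replicate 14 has 0 junctions on the + strand from base 61914768 to the end of the pair.

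The broken pair offers a left-hand end, which prey on the − strand reads away from, and a right-hand end, which prey on the + strand reads away from. On the + strand, left of the pair, inside it and right of it, replicate 14 had 72, 168 and 206 junctions, replicate 36 had 80, 272 and 139, and replicate 37 had 30, 84 and 44. On the − strand replicate 14 had 113, 13 and 50, replicate 36 had 66, 73 and 27, and replicate 37 had 20, 21 and 11. Replicates 36 and 37 thus had their highest count inside the pair on both strands, while replicate 14 had it right of the pair on the + strand and left of it on the − strand. Inside the pair the + strand made up 92.8, 78.8 and 80.0% in replicates 14, 36 and 37. Outside it the + strand made up 63.0, 70.2 and 70.5%. The + strand was thus the more frequent one in both places in all 3 libraries, and the values inside were higher.

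Outside the pair, 588 of 858 B-cell junctions read away from it, which is 72.3, 65.7 and 60.95% by library. Prey of this kind keeps the sequence beyond one broken end and lacks what lay between that end and the junction. On the + strand right of the pair the median distance from it was 998.5 bp in replicate 14, 450 bp in replicate 36 and 369 bp in replicate 37. On the − strand left of the pair it was 1389, 526.5 and 620.5 bp. The other 270 junctions read toward the pair. Of these, 182 lay on the + strand left of the pair, at median distances of 1277.5, 169.5 and 163.5 bp, and 88 on the − strand right of it. In fibroblasts 7 of 22 junctions read away from this place.

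The 22 fibroblast junctions lay apart from the pair and had 22 different positions, with 9 left of the peak and 13 right of it. Of those on the right, 12 were more than 2 kb away, 9 of them on the − strand. These 13 also lie inside the fibroblasts' own partner window, which starts at 61913262 and held 1098 of their junctions, 81.3% of them within 100 bp of the fibroblast peak. Left of that peak, prey on the − strand is the one that reads away from it. Whether the 13 belong to that break was not tested.

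**Figure D3:**
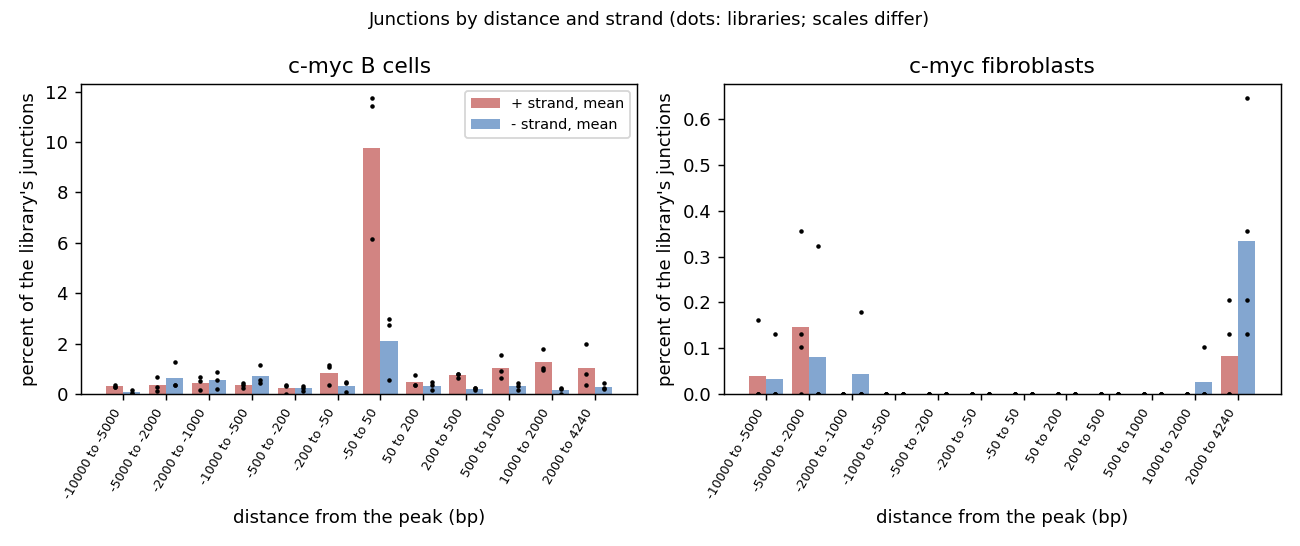
Percent of each library's junctions in bins of distance from the peak, in bp, on the + and − strand, with bars for the mean over libraries and dots for single libraries; the vertical scales of B cells and fibroblasts differ. In B cells the bin from -50 to 50 bp has the highest mean on both strands, and in fibroblasts every bin within 1000 bp of the peak is at 0.

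The 10 position and strand pairs with the highest mean share over the B-cell libraries all lay on the + strand, and 9 of them inside the pair. The prey of some of those inside the pair is shown from its first base to the end of the pair, with bases of the I-SceI sites in capitals. It shows how much of the sites each prey holds.
first base 61914760: ttATTACCCTGTTATCCCTAatc
first base 61914740: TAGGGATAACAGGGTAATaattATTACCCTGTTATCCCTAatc
first base 61914773: ATCCCTAatc
first base 61914775: CCCTAatc
first base 61914758: aattATTACCCTGTTATCCCTAatc
first base 61914748: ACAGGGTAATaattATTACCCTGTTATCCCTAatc
The most used one, at 61914760, starts just right of the axis and holds the whole right site. It had 5, 15 and 9 junctions in replicates 14, 36 and 37. The next, at 61914740, begins with the first base of the left site and holds both sites as aligned, with 3, 17 and 6 junctions. The prey from 61914773 had 0, 12 and 7 junctions and that from 61914775 had 0, 14 and 6. The last of these starts with the base that follows the cut of the + strand in the right site. Replicate 14 had none at either, and both lie in the stretch where it had no + strand junction. Inside the pair but not shown are 61914750, 61914766 and 61914762. In replicates 14, 36 and 37 they had 6, 3 and 5, then 12, 6 and 2, and 7, 10 and 2 junctions. Replicate 14 thus had the highest count at 61914750 and 61914766.

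Single positions held few junctions each, 14 to 29 over the 3 libraries at the 10 most used. Of 491 positions used on the + strand 23 occurred in all 3 libraries, and of 291 on the − strand 5 did. These 5 were the bases 61914738, 61914739, 61914740, 61914748 and 61914779. The prey from 61914779 is the mirror image of the + strand prey from 61914740, since it starts at the outer base of the right site and reads left through both sites. It had 1, 6 and 3 junctions in replicates 14, 36 and 37. On the − strand, 61914748 had 1, 3 and 1 junctions, and its prey reads as follows.
− strand, first base 61914748: TTATCCCTAatc
No position of the region held more than 1 fibroblast junction.

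Junctions at the cut itself were looked for within the 5 first bases that the overhang allows. On the + strand the right-hand end of the left site (bases 61914745 to 61914749) had 30, 36 and 10 junctions in replicates 14, 36 and 37. The right-hand end of the right site (61914771 to 61914775) had 0, 60 and 22. On the − strand the left-hand end of the left site (61914744 to 61914748) had 1, 21 and 6, and that of the right site (61914770 to 61914774) had 0, 8 and 3. In replicates 36 and 37 the outer end of the pair was thus the more used one on each strand. That is the right-hand end of the right site on the + strand and the left-hand end of the left site on the − strand.

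A whole I-SceI site was present in the aligned prey of 365 B-cell junctions, and whether it came from the bait was not tested. On the + strand these were 30.04, 29.7 and 27.2% of the junctions in replicates 14, 36 and 37, or 323 of 1095. On the − strand they were 1.70, 16.9 and 21.2%, or 42 of 394. Fibroblast junctions of the region had 0 such sites.

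The bait reads at these positions carry parts of I-SceI sites as well. Among the 22 junctions whose prey starts at 61914758, 10 had bait that ended in gggtaat, the last bases of a site, in all 3 libraries. In 6 of the 22, and in 7 of the 29 at 61914760, the bait and the reference at the join shared 20 bases, a whole site and the 2 bases next to it. Of the 26 junctions from 61914740, 12 shared 8 bases or more with the bait. Among the 20 junctions from 61914775, 9 had bait that ended in tagggat, the first 7 bases of a site, so that the join reads tagggat and then ccctaatc. At these places a read shows a joined product but does not tell which of the identical sites gave each base.

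Part of the reference next to the pair is also found in bait reads. This stretch of 84 bases, chr15:61914642-61914725, held the first prey base of 38 B-cell junctions on the + strand and 17 on the − strand. In 17 junctions the aligned prey consisted only of words found in bait reads, 5 on the + strand and 12 on the − strand. With these left out the + strand in the B-cell region was 35.9 points above that in the fibroblasts, against 35.3 with them.

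The structure of the joins was read from the end of the bait and the start of the prey. A join counted as inserted when bases lay between them that fit neither, as microhomology when bases fit both, and as blunt otherwise. In B-cell replicates 14, 36 and 37 inserted bases were found in 42.0, 37.8 and 32.2% of 603, 650 and 208 classified junctions of the region. Blunt joins made up 9.29, 11.7 and 12.0%, and microhomology 48.8, 50.5 and 55.8%. The median microhomology was 2, 2 and 3 bases. The means were 37.3% ± 4.89 inserted, 11.0% ± 1.49 blunt and 51.7% ± 3.66 with microhomology (SD, n = 3).

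Inside the pair the libraries differed more than outside it. Inserted bases were found in 55.2, 38.8 and 28.6% of junctions inside the pair in replicates 14, 36 and 37, against 36.3, 36.7 and 35.9% outside it. Microhomology made up 32.6, 47.2 and 60% inside and 55.7, 54.1 and 51.5% outside. The 3 libraries were thus close to each other outside the pair and spread widely inside it, with replicate 14 highest in insertions and replicate 37 lowest. The sets inside the pair cover different positions. From base 61914768 to its end replicate 14 had 0 + strand junctions, against 116 and 35 in replicates 36 and 37. The part of this in the spread was not tested. Shared stretches of 8 bases or more occurred in 35 junctions inside the pair and 17 outside.

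In the bait window of the same B-cell libraries inserted bases made up 35.6, 40.3 and 36.1%, blunt joins 7.45, 6.19 and 4.95% and microhomology 56.9, 53.5 and 58.9%. Blunt joins were more frequent in the region in all 3 libraries, by 4.80 points and without overlap (exact sign-flip permutation p = 0.25, the limit for 3 pairs, adjusted p = 0.325). With junctions within 200 bp of the partner peak left out this was 1.52 points, and values overlapped (exact permutation p = 0.75). Here and for microhomology below, only the region loses junctions, while the bait window keeps those around its own peak. Insertions differed by -0.0144 points (exact permutation p = 1), and that difference changed sign without replicate 36 or without replicate 37. Region minus bait window was -4.79 points for microhomology, with overlapping libraries (exact permutation p = 0.25, adjusted p = 0.325), and -1.33 points with those junctions left out (exact permutation p = 0.75).

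The fibroblasts' own partner window had fewer insertions and more blunt joins than the B-cell region. Insertions made up 37.3% ± 4.89 in the B-cell region (SD, n = 3) and 20.6% ± 0.385 in the fibroblasts' window (SD, n = 4). Blunt joins made up 11.0% ± 1.49 in the B-cell region and 23.01% ± 1.86 in the fibroblasts' window. Neither class overlapped, and both differences had exact permutation p = 0.0571, the limit for 3 against 4 libraries, with adjusted p = 0.149. The difference of -12.01 points in blunt joins was 0.743 with junctions within 200 bp of each peak left out (exact permutation p = 0.857). Counting each position and strand once, it was -3.03, and values overlapped. The difference of 16.8 points in insertions was 13.7 with gaps over 20 bases left out, again without overlap. Microhomology differed by -4.78 points with overlapping libraries (exact permutation p = 0.171, adjusted p = 0.318). It was -14.3 points without overlap when junctions within 200 bp of each peak were left out (exact permutation p = 0.0571), and -13.1 points with overlap when each position and strand counted once. Without lines that hold an I-SceI site it was -2.90 points without overlap (exact permutation p = 0.0571), and without gaps over 20 bases -1.73 points with overlap. Where bait and prey share bases, the B-cell tables start the prey after the bait and the fibroblast tables let it reach into the bait. The classification treats both alike only as far as the bait can be followed on the read.

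The fibroblast junctions of the region itself could hardly be classed, with 5, 2, 6 and 4 usable junctions in replicates 1 to 4. Of these 17 junctions 0 were blunt, which allows a share of up to 17.6%, above the 9.29 to 12.0% of the B-cell libraries, so that a difference was not detectable at these counts. Insertions averaged 37.3% in B cells and 25.8% in fibroblasts (exact permutation p = 0.457), and microhomology 51.7% in B cells and 74.2% in fibroblasts (exact permutation p = 0.171). Both overlapped. The adjusted p ranged from 0.149 to 1 over 13 tests of strand, structure and repeated positions, of which the last is given as a description only.

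**Figure D4:**
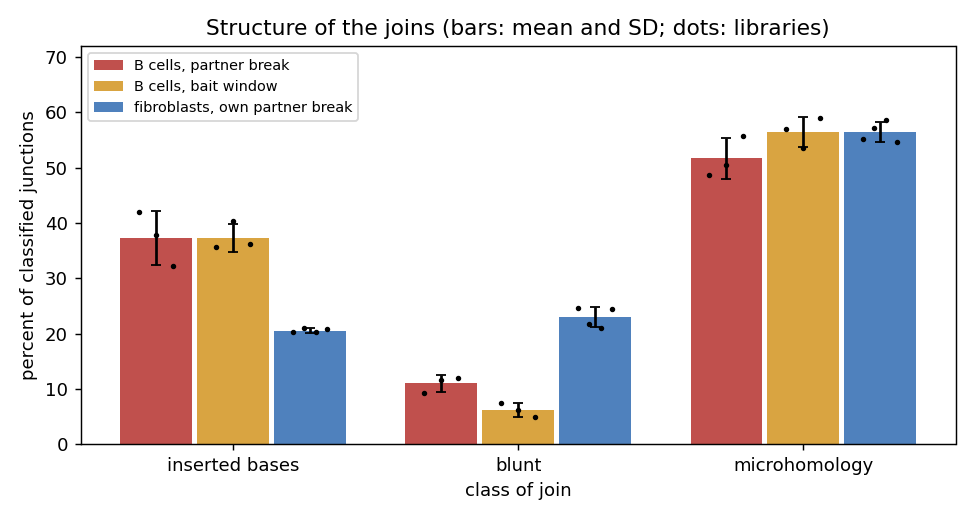
Percent of classified junctions with inserted bases, blunt joins and microhomology in the B-cell region, in the bait window of the same libraries and in the fibroblasts' own partner window, as mean with SD and dots for single libraries. Insertions are at 37.3% in the B-cell region and 20.6% in the fibroblasts' window, and blunt joins at 11.0% in the B-cell region and 23.01% in the fibroblasts' window.

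Many junctions of the region fell on a position and strand that the same library had used more than once. This was so for 50.6% ± 12.9 of B-cell junctions in the region and 34.5% ± 16.9 in the bait window (SD, n = 3 each). Values overlapped between the windows. Repeats depend on how junctions crowd around the peak that the region was chosen by, so that the difference of 16.1 points is a description. It was -21.7 points with junctions within 200 bp of the partner peak left out, and 7.77 to 31.4 points without single libraries. The value of -21.7 sets the region without its densest part beside a bait window that keeps its own peak. The 1489 B-cell junctions of the region had 905 positions and strands when counted within each library. They came from 1476 reads, since 13 reads have 2 lines, and no read occurred in more than 1 library. Counting each position and strand once, the share of the region was 17.6% in B cells and 1.09% in fibroblasts.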

How the data were processed

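Each line of the deposited tables is 1 junction with prey position, strand, read sequence and gene, per the file headers, on mm9, per the submitters' processing notes. The deposited alignment score is the authors' own and behaves like a count of matched bases minus penalties. Aligner and filters: not given in the sources used here. Library totals ran from 562 to 2918 junctions. The members, measures and comparisons were chosen with earlier results of these data known. Positions were named by their mean share over the B-cell libraries (the 10 highest); the − strand positions and bait ends were chosen after their values were seen.

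Positions are the first prey base, counted from 1, and distances from the peak use the deposited junction coordinate, which on the + strand is the base before. The reference was assembled from the aligned reference sequences in the tables. Bait was followed along a read by words of 14 bases found before the prey in at least 1 percent of reads of all 7 libraries. Bases before the prey that equal the reference next to it were counted as shared. Sequencing errors near the bait end can pass for short insertions.

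Groups were compared over libraries by exact two-sided permutation tests of means, windows of one library by exact sign-flip permutation tests, with Benjamini-Hochberg adjustment over 13 tests. Smallest possible p-values are 0.0571 and 0.25. The labels do not say whether replicates are separate animals or cultures, so that p-values measure the spread between libraries, which may be technical. Wilson intervals at 95 percent and limits from 3 counts cover counting error only. On simulated data only the recovery of inserted bases was checked, for + strand prey right of the pair on the B-cell reference. Blunt and microhomology calls, − strand prey, joins inside the pair and the fibroblast reads were not checked in this way. Alternatives counted repeated junctions once, changed the window or left out lines or libraries; leaving out bait-only lines, 1 line per read and the structure comparison with the fibroblasts' own window were added after seeing the data. Python 3.11.15, NumPy 2.4.6, pandas 2.3.3, SciPy 1.17.1 and matplotlib 3.10.9 were used.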

Additional observations from a re-analysis of the deposited data

How the results depend on the processing

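Of 206 alternative values, 191 kept their direction (or, for shares, stayed within 1 SD), 6 changed sign and 9 shares moved by more. No alternative could cross 0.05 in this design, so that keeping its side says nothing of stability. Of 179 such values with a test, 5 lost the separation between libraries that the reported value has and 17 gained one. The share of the region in B cells, 22.8%, was 17.6% with 1 junction per position and strand, 17.6% within 1 kb, 8.91% without junctions within 200 bp of the peak, 18.05% without lines that hold an I-SceI site, 27.5% of chromosome 15 and 45.6% outside the bait window. In fibroblasts, at 0.788%, it was 1.09% with 1 junction per position and strand, 0% within 1 kb and 1.19% outside the bait window. Insertions in the region minus the bait window, -0.0144 points, were 3.05 with 1 junction per position and strand, 0.663 with 1 per position, strand and far end, and -3.18 to 1.94 without single libraries. Without junctions within 200 bp of the peak, blunt joins minus the fibroblasts' own window were 0.743 points and repeated positions minus the bait window -21.7. For the latter the bait window was kept whole. The causes were not tested.

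Without single libraries the shares ranged from 22.2 to 23.5% in B cells and 0.674 to 0.877% in fibroblasts, and the + strand difference from 27.2 to 39.1 points against the fibroblast region, -5.22 to -0.860 against the bait window and 19.7 to 21.8 against the fibroblasts' own window. Differences from the fibroblast region have no value within 1 kb of the peak, where fibroblasts have 0 junctions. No paired analysis was possible because the c-myc groups compared share no replicate numbers. No test could pass 0.05 with these numbers of libraries. Counts of 4 to 7 junctions limit what fibroblasts can show in the region.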
